A study of Mus musculus with 10 samples.

Results

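Dense groups of RelA regions are stretches of the genome where the transcription factor RelA was called many times within short distances after lipopolysaccharide. They were found in the RelA list of bone marrow derived macrophages of C57BL/6J mice stimulated with lipopolysaccharide (LPS) for 3 h without dexamethasone (Dex). Regions overlapping the list of untreated input DNA by at least 1 bp were left out, and the remaining 4972 regions were joined whenever the gap to the next was at most 10000 bp. Members were thus chosen by the calls and spacing of 3 h alone, and chains of at least 4 regions were kept, which gave 67 groups holding 355 regions, or 7.14% of the 4972. The whole series holds 115077 regions in its 10 lists.

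RelA was also mapped before LPS and at 8 h of LPS without Dex, after 3 h of Dex pretreatment followed by 0, 3 or 8 h of LPS, and at 8 h of LPS with Dex added late, at an hour that the labels do not give. The glucocorticoid receptor (GR) was mapped in cells given Dex and in cells given both agents, at times the labels leave out, after cross-linking with disuccinimidyl glutarate and formaldehyde, whereas formaldehyde alone was used for RelA. All cells were primary macrophages, and the labels do not say how many mice gave them or whether mice were pooled. Each condition had 1 library, so no test between conditions was possible. The sources used here give no read depth, and tag densities of different libraries are set side by side without knowledge of how they were scaled. Wilson 95% intervals cover counting error only and treat regions as independent. Members of 1 group are neighbours on the chromosome, so their intervals are too narrow.

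RelA is the p65 subunit of NF-κB, held in the cytoplasm by I-κB proteins until a signal such as LPS, sensed by Toll-like receptor 4, releases it to the nucleus. There it binds short DNA motifs in promoters and enhancers of inflammatory genes, and strongly induced genes often carry several such elements close together. GR is a hormone-activated receptor. With Dex bound it moves to the nucleus, binds its own DNA elements or associates with other factors, NF-κB among them, and lowers the output of many inflammatory genes. The RelA positions are on the mouse build mm9 as deposited. No annotation or sequence of that build was used here, so groups are called by chromosome and position, and genes and DNA letters are not given.

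The groups were mostly small, with a few long ones. A count of 34 groups had 4 regions, 12 had 5, 11 had 6 and 10 had at least 7, up to 13. Spans ran from 4492 to 44466 bp with a median of 15016 bp, and together covered 1095588 bp. Within a group the called regions filled a median of 24.5% of the span (lowest 9.12%, highest 69.0%). The gaps between neighbours, 288 in all, had a median of 1845 bp, and 106 of them were at most 1000 bp.

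The threshold cut a continuous range. The largest gap inside a group was 9721 bp and the smallest gap from a group to the next region outside it was 10002 bp. A further 127 chains had 3 regions and fell just short. On chromosome 2, the groups at 164246458 to 164250952 and at 164264185 to 164281987 stood 13233 bp apart. On chromosome 3, those at 142156652 to 142163192 and at 142185867 to 142199028 stood 22675 bp apart.

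The groups were spread unevenly over the chromosomes. Chromosome 2 held 11 of them, chromosome 11 held 8 and chromosome 6 held 6, while chromosomes 15 and 18 held none in spite of 172 and 133 regions. Members were 15.3% of the 372 regions of chromosome 11 and 14.2% of the 226 of chromosome 12, but 1.31% of the 306 of chromosome 5 and 2.59% of the 347 of chromosome 1. These shares describe the rule's own outcome.

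Members had a somewhat higher tag density at 3 h than other regions. The median of the highest tag density, a signal value the authors gave per region, was 22.7 in dense groups (quartiles 17.7 and 32.4), 20.5 in chains of 2 to 3 regions and 17.5 in lone regions. Median widths were 636, 587 and 512 bp. These values come from the list that chose the members. For several of the comparisons that follow, all 4972 regions were therefore sorted into quintiles of tag density, with the highest quintile starting at 28.1. Shares given without a quintile are not at like strength.

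**Figure D1:**
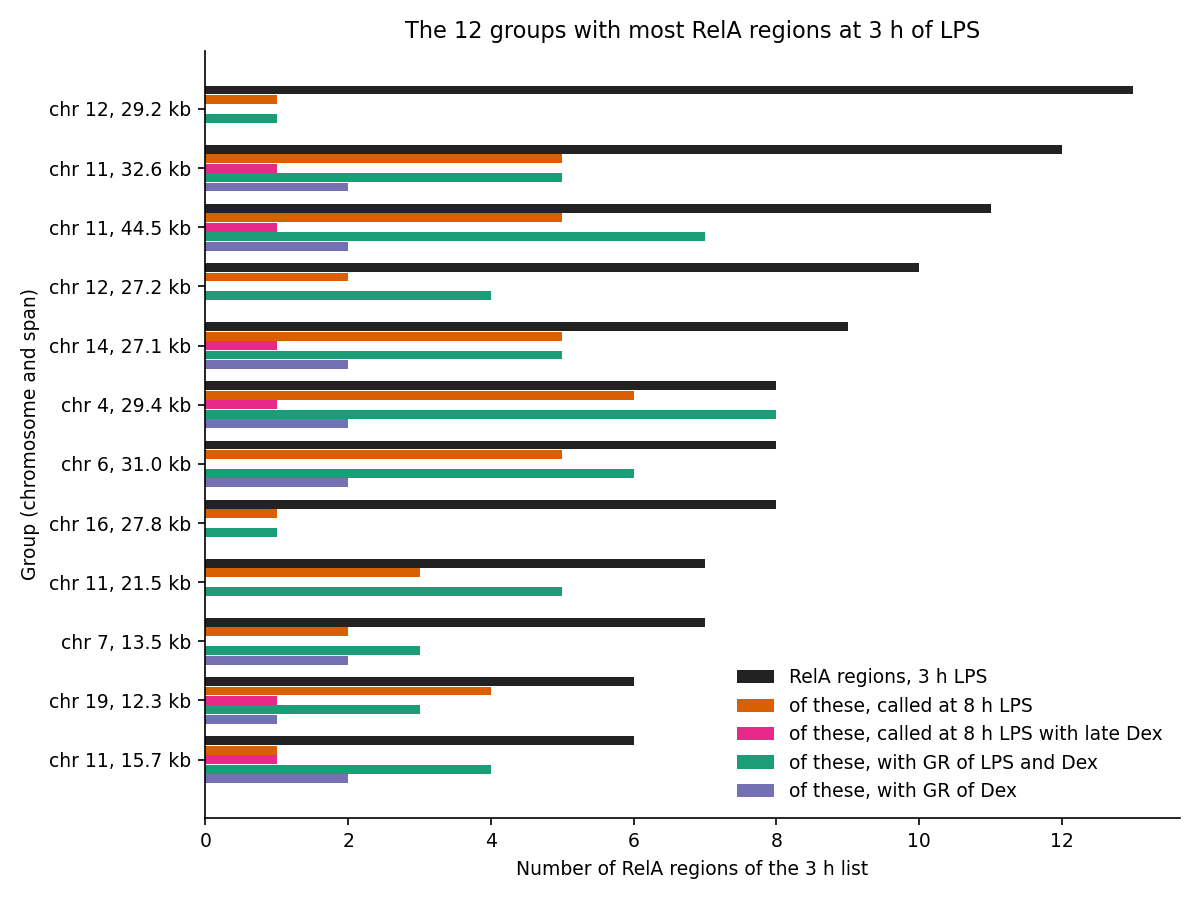
Bars give, for each of the 12 groups with most regions, the number of RelA regions at 3 h of LPS and how many of these were met by RelA at 8 h, by RelA at 8 h with late Dex, and by GR regions of tag density 10 or more in the LPS and Dex and the Dex libraries (1 library each, no error bars). The group of 13 regions on chromosome 12 has 1 region called at 8 h and 1 with GR, whereas the group of 8 on chromosome 4 has 6 and 8.

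The largest group lay on chromosome 12 from 27125626 to 27154834, with 13 RelA regions in 29208 bp. Their tag densities at 3 h were even and moderate, from 16.3 to 33.0. The first 11 regions formed an unbroken run to 27141555 with no gap over 1000 bp. At 8 h a single region was called, over the first and strongest one, with a tag density of 14.8. One region of the 13, at 27144956 to 27145278, met a GR region of LPS and Dex (density 39.0), and no GR region of Dex with a density of at least 10 lay in the span. Late Dex left no region there. The group with the most RelA calls at 3 h therefore kept 1 at 8 h.

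A group of 12 on chromosome 11, from 117820995 to 117853564, had the opposite make-up, with strong and weak regions side by side. Its strongest region, 117838947 to 117839731, had a tag density of 96.3 at 3 h. It had 90.5 at 8 h and 21.0 when Dex was added late, and a GR density of 39.0 with LPS and Dex. Second came 117820995 to 117821887, with 71.2 at 3 h, 50.0 at 8 h, and GR in both libraries (17.3 with Dex and 49.5 with LPS and Dex). In between, 5 regions from 117826738 to 117830670 had densities of 17.3 to 26.1, and none of them was called at 8 h or met GR. In all, 5 of the 12 were called at 8 h and 5 met GR of LPS and Dex.

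The widest span, 44466 bp on chromosome 11 from 86393914 to 86438380, held 11 regions. A run of 6 regions filled its first 7031 bp, and 5 regions stood far apart over the rest. All 5 of the spaced regions met GR of LPS and Dex, with densities from 42.2 to 206, and 3 of them were called at 8 h. The highest GR density was at 86409605 to 86410216, where RelA had 36.3 at 3 h, was not called at 8 h, and was called with late Dex at 19.7. At the far end, 86437493 to 86438380, RelA had 51.2 at 3 h and 53.5 at 8 h and was not called with late Dex.

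**Figure D2:**
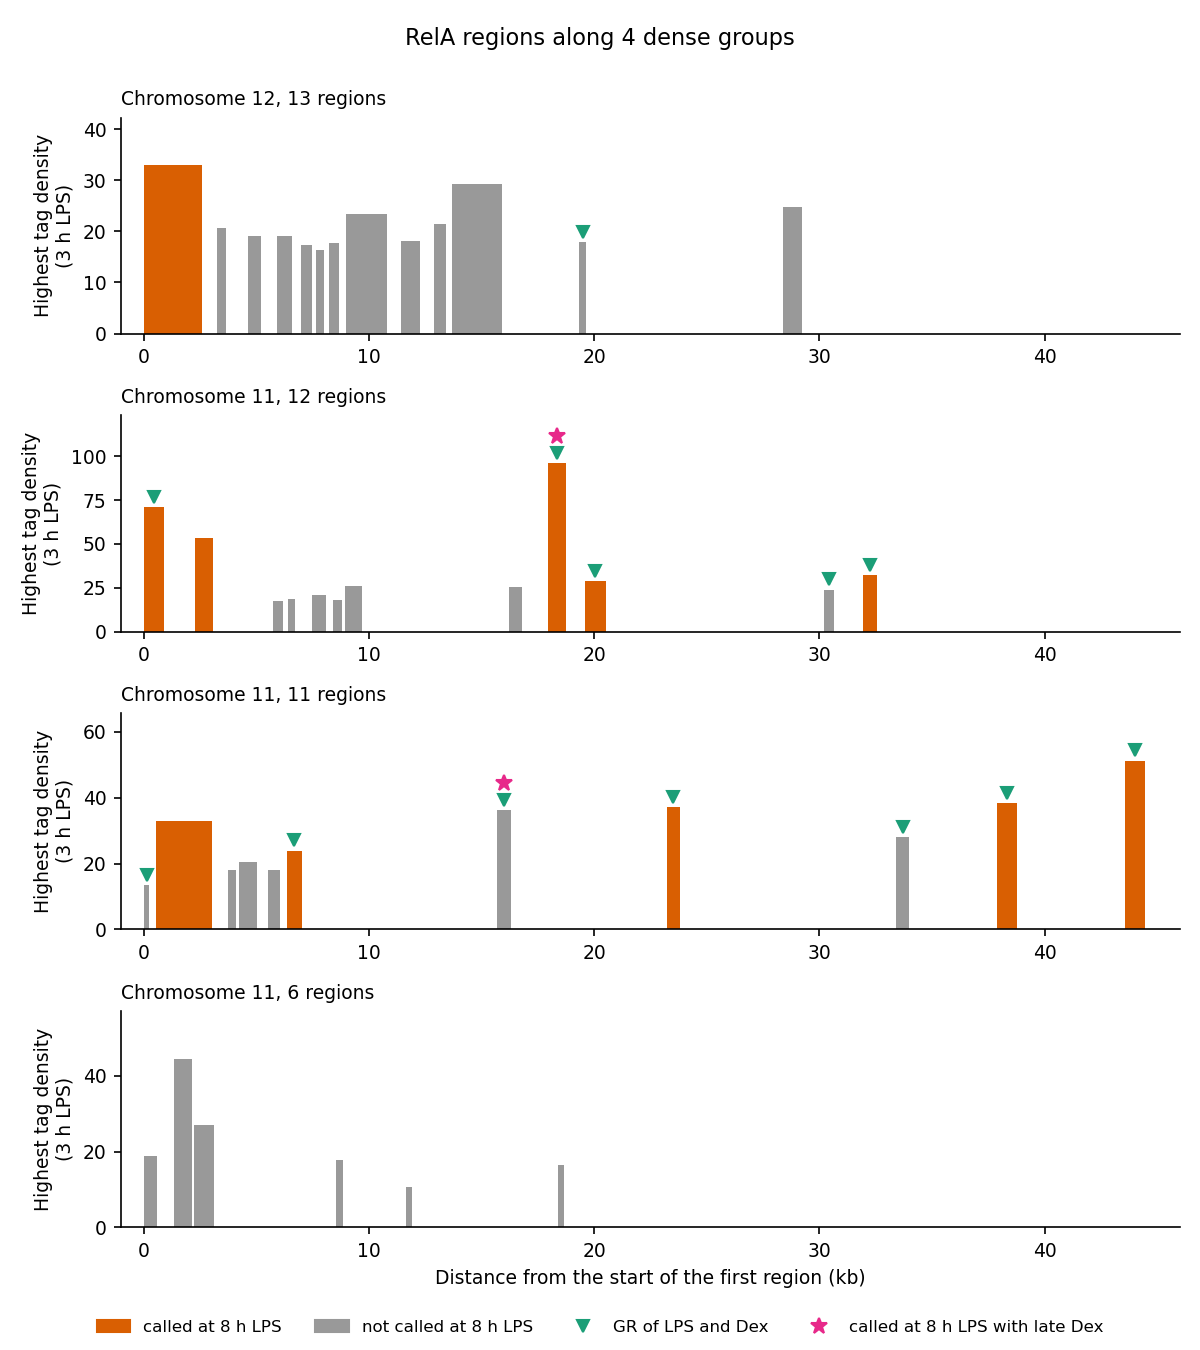
Each bar is a RelA region of the 3 h list, drawn to scale at its distance in kb from the start of the first region, with its highest tag density at 3 h as the height (own linear axis per panel). Orange bars were called at 8 h of LPS and grey bars were not. Triangles mark regions that met GR of LPS and Dex (density 10 or more) and stars those called at 8 h with late Dex. The 13 regions of chromosome 12 carry 1 triangle, and the 6 regions of chromosome 11 at the bottom (53574736 to 53593392) carry no mark at all.

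Other large groups varied as well. On chromosome 12 from 112667756 to 112694992, 2 of 10 regions were called at 8 h and 4 met GR of LPS and Dex. The group of 9 on chromosome 14 (103432667 to 103459748) had a region 3664 bp wide at 103445716 to 103449380, with densities of 91.0 at 3 h and 97.1 at 8 h, and 30.6 when Dex was added late. Its 5 regions called at 8 h were the same 5 that met GR of LPS and Dex. The 8 h list held 7 separate regions in that span, the most of any group.

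The 3 groups of 8 regions differed widely from each other. On chromosome 4 (144844115 to 144873557) all 8 met GR of LPS and Dex, with GR densities from 18.9 to 73.4, and 6 were called at 8 h. With late Dex the region kept there was 144851117 to 144851895, ranked 4 in the group at 3 h (39.3) and 1 at 8 h (54.2), with 28.8 under late Dex. On chromosome 6 (113588259 to 113619220) 6 of 8 met GR of LPS and Dex and 5 were called at 8 h. On chromosome 16 (97666912 to 97694676), 1 of 8 met GR and 1 was called at 8 h, a different region in each case: 97666912 to 97668568 had 30.7 at 3 h and 15.4 at 8 h without GR, and 97694185 to 97694676 had a GR density of 45.0 without a call at 8 h.

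Among groups of 6 to 7, that of chromosome 11 from 83336778 to 83358265 had 6 regions of the highest quintile, 39.6 to 61.3, and 1 of 21.8. Of its 7 regions 3 were called at 8 h and 5 met GR of LPS and Dex. No GR of Dex lay in its span. The strongest of 6 regions at chromosome 11, 109271538 to 109287286, was 109271538 to 109272384, with 68.6 at 3 h and 19.5 at 8 h. Late Dex gave 27.0, and GR had 225 with LPS and Dex, which met 4 of the 6 regions. A group of 7 on chromosome 7 (29158042 to 29171542) held no region of the highest quintile, with densities from 14.8 to 25.6, and had 2 regions at 8 h and 3 with GR of LPS and Dex.

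In the library labelled 0 h of LPS, almost nothing was called in these stretches. The name of its deposited list carries 3 h with no agent, and the label was followed. The list at 0 h met 1 of the 355 regions (0.282%), while 0.744% of all 4972 were met. That region was chromosome 4, 124801595 to 124802527, the strongest of its group of 5, with densities of 17.5 at 0 h, 52.3 at 3 h and 33.5 at 8 h, and 28.3 under late Dex. No dense group existed by the same rule in the lists at 0 h, after pretreatment at any time, or with late Dex. Outside input, the lists at 0 h and with late Dex held 47 and 225 regions. Those after pretreatment held 43, 33 and 15 at 0, 3 and 8 h of LPS. Lists so short could hardly form groups of 4, so this absence does not describe how their regions cluster.

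At 8 h of LPS most spans still held a RelA region, but few were dense. A region of the 8 h list lay in 55 of the 67 spans, and 16 groups had 1 member called. Each span holds at least 4 regions, so most spans would hold a call at the share of all regions, 31.3%. Of the 355 regions, 131 were called again, 36.9% (32.0 to 42.0), beside 31.3% of all 4972, 37.4% (34.9 to 40.0) in chains of 2 to 3 and 28.1% (26.6 to 29.7) of lone regions. Only 2 groups had every member called at 8 h, at chromosome 2, 46215692 to 46228934, and chromosome 13, 5773003 to 5789020, each of 4 regions. New positions were rare: of the 138 regions of the 8 h list inside the spans, 1 met no member. The rule applied to the 1878 regions of the 8 h list itself gave 12 groups of 56 regions. Of the 67 groups of 3 h, 8 met one of these.

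The higher share went with strength. Within the highest quintile, 74.6% of dense-group regions (66.0 to 81.6; 88 of 118) and 74.2% of lone ones (70.3 to 77.7) were called at 8 h. In the fourth quintile the shares were 26.9% (18.9 to 36.7) and 38.8% (34.9 to 42.8), and in the third 13.9% (7.72 to 23.7) and 21.8% (18.8 to 25.2), with overlapping intervals. No quintile showed dense-group regions above lone ones beyond their intervals. The lowest deposited score was 8.88 at 3 h and 10.9 at 8 h. When regions of all lists had to score at least 11, the share in dense groups, 40.6%, was below that of all regions, 42.1%.

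Within a group, the regions called again were the strong ones. The region of highest density at 3 h was called at 8 h in 50 of 67 groups, 74.6% (63.1 to 83.5), the second in 33 (49.3%; 37.7 to 60.9), the third in 24 (35.8%; 25.4 to 47.8), and the lower-ranked in 24 of 154, 15.6% (10.7 to 22.1). The median density at 3 h of members called at 8 h was 32.9, against 19.8 for members not called. Lone regions gave 25.7 and 15.9, and all regions of the 3 h list 27.5 and 16.7. The share of lone regions called at 8 h rose from 8.45% in the lowest quintile to 74.2% in the highest. The dependence on strength was therefore not particular to dense groups. At the 131 called members the log2 ratio of the density at 8 h to that at 3 h had a median of -0.13 (quartiles -0.52 and 0.25), and 0.04 (-0.34 and 0.36) at all 1556 regions called at both times, on a scale between the libraries that is not known.

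A total of 12 groups had no region of the 8 h list. The largest was chromosome 11, 53574736 to 53593392, with 6 regions. Its strongest, 53576091 to 53576903, had a density of 44.6 at 3 h. It also had no GR region of density 10 or more from either GR library, and the only other group without GR of LPS and Dex, chromosome 17, 34046334 to 34066881 (4 regions, 9.92 to 27.3), was likewise not called at 8 h. Other groups without an 8 h call did carry GR. At chromosome 12, 8391812 to 8400115, the region 8393101 to 8394178 had 63.9 at 3 h and no call at 8 h, yet 3 of its 4 regions carried GR of LPS and Dex. At chromosome 2, 130912583 to 130917075, every one of 4 regions did. The group of 5 at chromosome 1, 165996989 to 166018543, had GR of LPS and Dex at 3 regions, with a density of 102 at 166017836 to 166018543. On chromosome 3, 142185867 to 142199028, 2 of 5 regions had GR, with a density of 170 at 142198676 to 142199028. All 5 regions at chromosome 2, 164246458 to 164250952, were weak, 11.4 to 21.3, and packed into 4494 bp. The strongest region of these 12 groups had a median density of 26.5 at 3 h, and 50.3 in the 55 others.

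**Figure D3:**
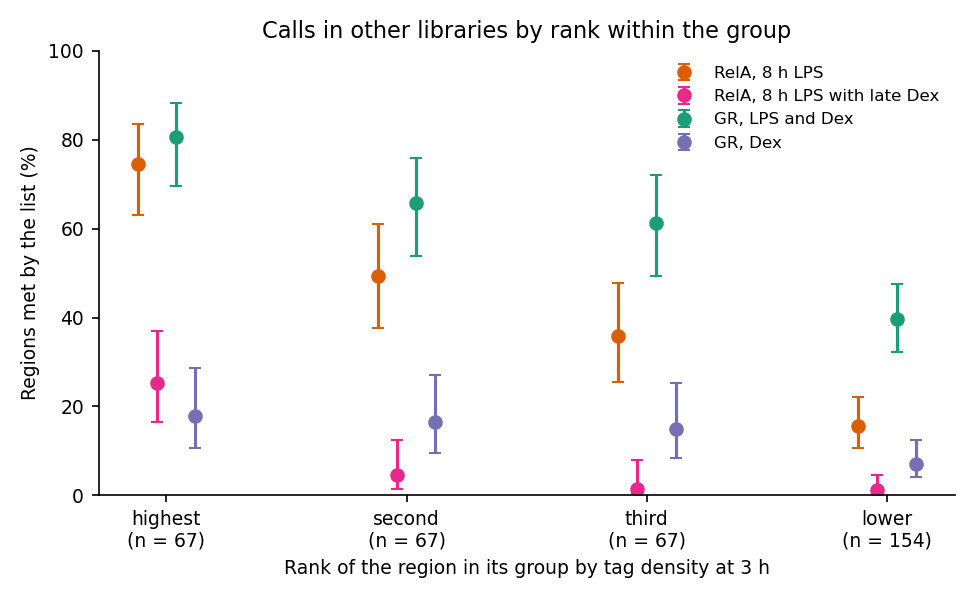
Points give the share of dense-group regions met by each list, by the region's rank in its own group in tag density at 3 h (67 groups, 154 lower-ranked regions). Bars are Wilson 95% intervals for counting error. RelA at 8 h falls from 74.6% at the highest-ranked regions to 15.6% at the lower-ranked, and GR of LPS and Dex from 80.6% to 39.6%.

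After Dex pretreatment, almost no RelA was called in these stretches. The pretreated lists at 3 h and 8 h of LPS met 0 of the 355 regions, which allows a share of up to 0.845%, and no region of either list lay in any span. Among all 4972 regions the shares were 0.241% and 0.0805%, so few or none would be met at the background share. Both pretreated lists are short, with 33 and 15 regions outside input, and whether the libraries were of like depth was not tested. With pretreatment alone, 2 regions were called (0.563%; 0.603% of all 4972). One was chromosome 2, 167579186 to 167580092, the highest tag density of any member at 3 h (137), with 30.6 after Dex alone, 84.5 at 8 h and 51.6 under late Dex. GR there had 76.8 with Dex and 180 with both agents. The other was chromosome 19, 10051996 to 10053287, with 79.6 at 3 h, 24.5 after Dex alone, 71.6 at 8 h and 33.0 under late Dex. Neither was called at 0 h.

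With late Dex at 8 h of LPS, 45 of the 67 groups had no region and 21 had 1. The list met 23 of the 355 regions, 6.48% (4.36 to 9.53), beside 4.24% of all 4972, in 22 groups. In the highest quintile the shares were 17.8% (11.9 to 25.7) in dense groups and 17.6% (14.6 to 21.1) among lone regions. All but 1 of these groups kept 1 region. The exception was chromosome 7, 53965859 to 53979943, where 53969292 to 53971622 had 75.1 at 3 h, 91.4 at 8 h and 40.3 under late Dex, and 53974822 to 53975657 had 50.3, 32.8 and 37.8.

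The region kept under late Dex was usually the peak of its group. It ranked first by density at 3 h in 17 of the 22 groups, and the median density at 3 h of the 23 regions was 54.4, against 21.9 for the other members. Lone regions called and not called with late Dex had medians of 48.7 and 17.4. Over all regions of the 3 h list the medians were 53.4 and 18.2, so this contrast was not particular to dense groups. Of the 23, 21 were called at 8 h without Dex, and 3 of the 21 had the higher density with late Dex. Among the 131 members called at 8 h, 16.0% (10.7 to 23.3) were called with late Dex, beside 12.7% of the 1556 regions called at 3 h and 8 h. One of the pair called with late Dex and not at 8 h was chromosome 1, 80599448 to 80600287, with 70.9 at 3 h and 24.5 with late Dex, and GR of 326 with both agents and 65.7 with Dex. The other was the chromosome 11 region from 86409605 described above.

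GR regions of LPS and Dex with a density of at least 10 lay over 200 of the 355 RelA regions, 56.3% (51.1 to 61.4), beside 61.0% of all 4972. The share was 67.0% (64.4 to 69.4) in chains of 2 to 3 and 59.1% (57.4 to 60.7) among lone regions. Such GR regions were found in 65 of the 67 spans, 230 in all. Each span holds at least 4 RelA regions, so most spans would hold such GR at the share of all regions. Every member was met in 8 groups. The other 28 of the 230 GR regions lay between RelA regions. Where both met, their centres were a median of 60.5 bp apart (52.5 bp over all regions), and the median GR density was 31.5 (33.4 over all).

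At like strength, the share with GR at dense-group regions stood below that at lone ones in the upper quintiles. In the highest quintile the share was 76.3% (67.8 to 83.0) in dense groups and 86.5% (83.4 to 89.2) among lone regions. In the fourth it was 54.8% (44.7 to 64.6) and 69.1% (65.3 to 72.8), and in the third it was 40.3% (29.7 to 51.8) and 60.7% (56.9 to 64.4). Intervals overlapped in the lowest 2 quintiles. Members of 1 group are neighbours, so the dense-group intervals are too narrow, and in the highest quintile the limits nearly touch. The largest group, with GR at 1 of its 13 regions, was kept in these quintiles. The difference itself was not tested. Without regard to strength, the share in dense groups was slightly above that of all regions once close calls were merged. When regions of the 3 h list within 500 bp were merged before chaining, 64.4% of 236 regions in 47 groups met such GR, against 62.0% of all. That difference was not tested either, and merged regions were not compared by quintile.

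**Figure D4:**
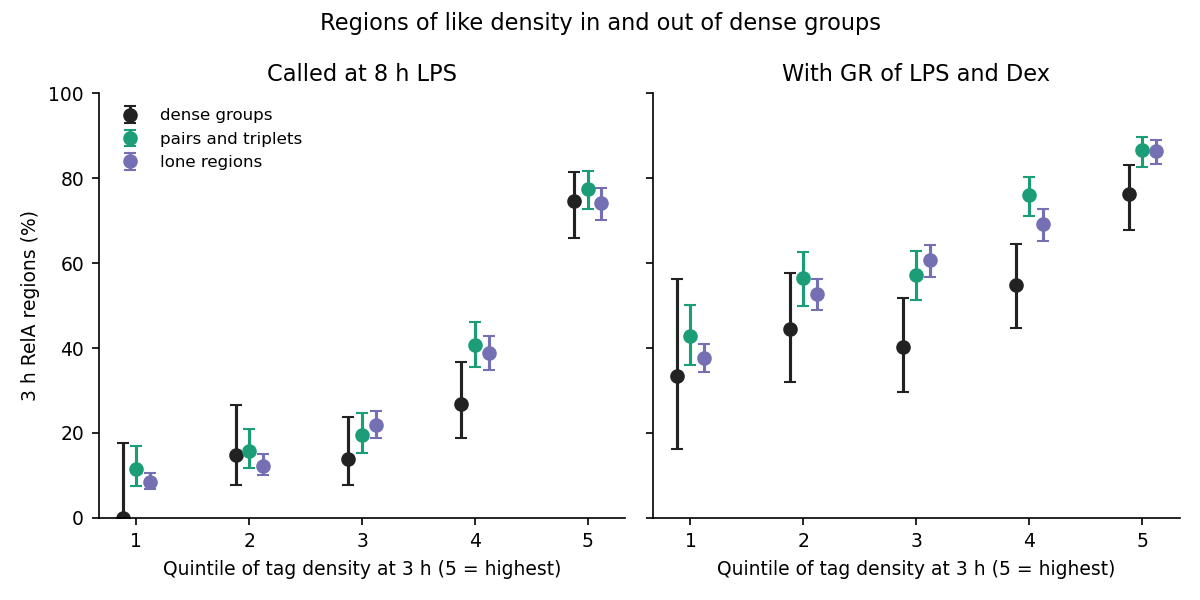
Shares of RelA regions of the 3 h list called at 8 h (left) and met by GR of LPS and Dex (right), by quintile of tag density at 3 h, for dense groups, chains of 2 to 3 and lone regions, with Wilson 95% intervals. In the upper 3 quintiles the dense-group points for GR lie below the lone ones, 76.3% against 86.5% in the highest.

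The share with GR also differed by spacing. A distance of 1000 bp was chosen after the values had been seen. The 169 members with another RelA region within that distance met GR of LPS and Dex at 46.2% (38.8 to 53.7), and the 186 others at 65.6% (58.5 to 72.0). In the highest quintile the shares were 66.0% (52.6 to 77.3; 53 regions) and 84.6% (73.9 to 91.4; 65 regions), and in the third 28.2% (16.5 to 43.8) and 54.5% (38.0 to 70.2), with overlapping intervals in both. The lowest quintile had the opposite order, 5 of 12 regions (41.7%) and 1 of 6 (16.7%), as it did over all regions (45.6% and 38.0%). GR of Dex was also less frequent at members with a close neighbour, 5.92% (3.25 to 10.5) and 18.3% (13.4 to 24.5). Over all 4972 regions it met 11.4% (8.95 to 14.5) and 16.8% (15.8 to 18.0). Among members, RelA at 8 h was called at 30.8% (24.3 to 38.1) and 42.5% (35.6 to 49.7), and late Dex at 6.51% and 6.45%. Over all 4972 regions the order for RelA at 8 h was the opposite, 34.5% (30.5 to 38.8) with a close neighbour and 30.9% (29.6 to 32.3) without, and late Dex met 6.11% and 4.03%. For GR of LPS and Dex the same split of all regions gave 54.4% (50.1 to 58.7) of the 507 with a close neighbour and 61.8% (60.4 to 63.2) of the rest.

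Runs of 4 or more with no gap over 1000 bp occurred in 7 groups, and 3 of them carried no GR of LPS and Dex. These were the 11 regions of the chromosome 12 run, the 5 of chromosome 11 from 117826738, and the 4 of chromosome 16 from 97680456 to 97684624. In the chromosome 12 run 1 region was called at 8 h, and in the runs of 5 and 4 none was. The run of 6 on chromosome 11 from 86393914 had 2 regions at 8 h and 2 with GR. On chromosome 19, the run of 4 from 10057013 to 10061706 had 2 at 8 h and 1 with GR. All 5 regions at chromosome 2 from 164246458 formed a run, with 1 carrying GR and none called at 8 h. All 6 regions of the group at chromosome 2, 127160589 to 127165966, formed a run, with 1 called at 8 h and 1 with GR. Without the largest chromosome 12 group, left out after the values had been seen, the GR share in dense groups was 58.2%. Whether a run is a single broad enriched stretch or several binding sites cannot be told apart in lists of regions.

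**Figure D5:**
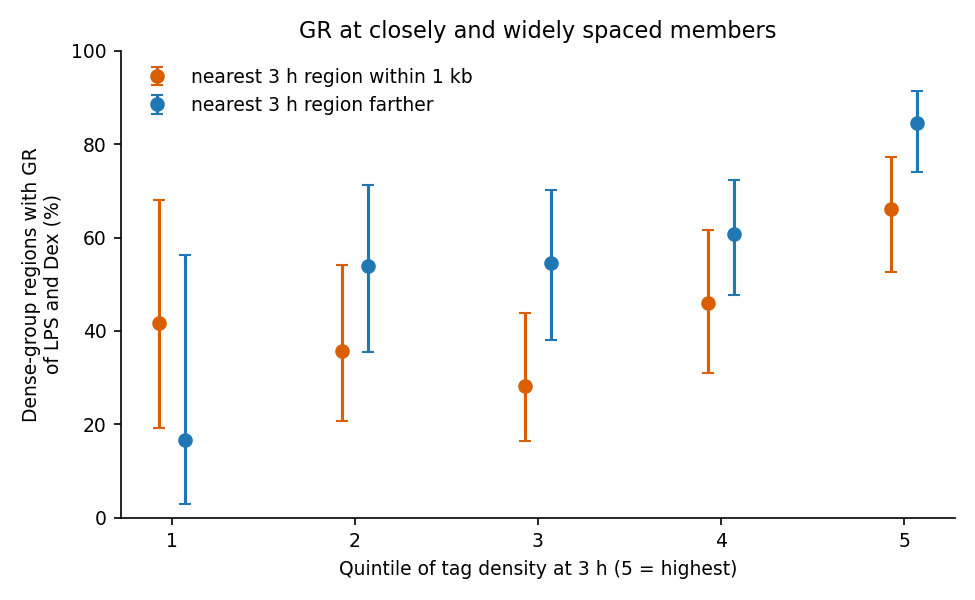
Share of dense-group RelA regions that met GR of LPS and Dex (density 10 or more), by quintile of tag density at 3 h, for regions with another 3 h region within 1 kb and for those without, with Wilson 95% intervals. The highest quintile reads 66.0% and 84.6%. The lowest quintile holds 12 and 6 regions.

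GR and RelA at 8 h were called at many of the same members. Of the 200 members with GR of LPS and Dex, 112 were called at 8 h, 56.0% (49.1 to 62.7), and of the 155 without, 19, 12.3% (7.99 to 18.4). The same held over all 4972 regions, with 45.2% and 9.55%, and in chains of 2 to 3, with 49.2% and 13.6%. Members with GR were also the stronger at 3 h, with median densities of 26.8 and 20.3. In the highest quintile the shares were 81.1% (71.8 to 87.9; 90 regions) and 53.6% (35.8 to 70.5; 28 regions). Lone regions gave 79.4% (75.5 to 82.9) and 40.3% (29.7 to 51.8) there. Of the 23 members called with late Dex, 21 met GR of LPS and Dex, 91.3% (73.2 to 97.6), beside 97.2% of all 211 regions called with late Dex, and 3 met GR of Dex.

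RelA regions without GR in dense groups still had GR nearby. The nearest GR region of LPS and Dex was a median of 3216 bp away from the 155 members without one, and 89.0% had it within 10000 bp. In chains of 2 to 3 the median was 4432 bp with 70.0% within that distance, and for lone regions 27678 bp with 24.4%. The order follows in part from the rule, since a region in a dense group has neighbours that can carry GR.

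GR of Dex without LPS was sparse in the groups, as it was over all regions of the 3 h list. Regions with a density of at least 10 met 44 of the 355, 12.4% (9.36 to 16.2), beside 16.3% of all 4972, and 35 of the 67 spans held none. All 44 also met GR of LPS and Dex, as did 806 of the 810 regions with GR of Dex among all 4972. The span with most such regions held 3, at chromosome 6, 97399567 to 97414583, where each of the 5 RelA regions carried GR of LPS and Dex. There, at 97413612 to 97414583, RelA had 26.8 at 3 h, and GR had 45.9 with Dex and 51.6 with both agents. The most members met in a group was 3 of 4, at chromosome 6, 120095444 to 120106491, a group named after its values had been seen. Its RelA regions were weak, 10.5 to 21.5 at 3 h, and not called at 8 h, and a single GR region of density 35.2 with Dex and 154 with both agents spanned a pair of them. The median density of GR of Dex at the 44 was 19.0, and 18.5 at all RelA regions with such GR. The rule applied to GR regions of that density gave 465 groups with LPS and Dex, holding 2315 of 16366 regions, and 40 of these groups met a RelA group. With Dex it gave 43 groups, holding 408 of 3733 regions, and 1 of them met a RelA group. A longer list can form more groups by this rule, and the counts were not adjusted for length.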

How the data were processed

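One list of enriched regions per library was used. The authors placed reads on mm9 and used CASAVA, per the submitters' processing notes; the caller's version, threshold, duplicate filter and input subtraction are not given in the sources used here. The deposited highest and mean tag densities are signal values, per the file headers. The deposited score is a z-score and the deposited p-value belongs to the same region; p-values were not used. Regions overlapped when they shared 1 bp. ChIP regions overlapping input were removed from every list, and GR regions needed a highest tag density of 10. Overlaps, chains and intervals were computed with Python 3.11.15, numpy 2.4.6, pandas 2.3.3 and scipy 1.17.1, and checked on simulated regions. The members and lists were chosen with earlier results of these data known. Named groups were the 12 with most regions, the 3 with most at 8 h, with late Dex or with GR of Dex, and up to 5 each with a pretreated region, without an 8 h region or without GR of LPS and Dex. Ties went to the higher summed tag density at 3 h. Other groups were named after their values were seen. Depth is unknown and limits every share.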

Additional observations from a re-analysis of the deposited data

How the results depend on the processing

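The number of groups, 67, depended on the rule. It was 37 with gaps of at most 5000 bp, 131 with 20000 bp, 194 with at least 3 regions, 33 with at least 5, and 36 with a score of at least 11. The number of member regions under these 5 settings was 188, 663, 736, 219 and 180, and 236 after merging within 500 bp. Each member share below is followed in brackets by that of all 3 h regions under the same setting. Among members, the share called at 8 h was 42.8% (31.8%) after merging and 28.7% (27.8%) with at least 50% of both regions shared. The latter overlap gave 3.66% (2.67%) for late Dex, 44.8% (49.6%) for GR of LPS and Dex and 8.73% (13.3%) for GR of Dex. GR of LPS and Dex met 50.0% (61.0%) with gaps of at most 5000 bp and 64.4% (62.0%) after merging. A GR density of at least 20 gave 42.3% (48.5%) for GR of LPS and Dex and 5.92% (7.28%) for GR of Dex. Other settings moved shares by less than the counting interval. Leaving out the largest group was added after the data were seen. No paired analysis was possible because each condition had 1 library.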
